A study of Mus musculus with 6 samples.

Results

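The genes described here are 35 regulators of p53 signalling and apoptosis, measured in whole mouse uterus labelled as deleted or loxP-flanked for Mettl3, the gene of the catalytic subunit of the RNA N6-methyladenosine writer complex. The members were named by symbol and were found by an exact match in the gene column, which gave 35 of 21900 gene symbols: 14 of the p53 network, 12 of the BCL2 family and 9 of the caspase machinery. The libraries are 3 labelled Mettl3 d/d and 3 labelled Mettl3 f/f. In standard mouse notation d/d is the deleted and f/f the loxP-flanked allele. All females were 6 to 8 weeks old, were mated with fertile males and were killed on gestational day 4, with the plug on day 1. The labels give no Cre driver, no deleted exons and no statement that a library is 1 animal, so p-values cover only library-to-library spread, which may be technical.

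Mettl3 stood at 42.9, 30.1 and 46.5 FPKM in the d/d libraries, against 30.3, 29.8 and 26.3 FPKM in the f/f libraries (log2 fold change 0.43, limma adjusted p = 0.202), so it was not lower under the d/d label. FPKM is fragments scaled to gene length and to all mapped fragments of the library. A value summed over the gene also holds exons outside a deletion and does not test the label, and d/d below always means labelled d/d. Mettl3 also shares 933 exon bases with Tox4 on the other strand. The d/d libraries differed more among themselves (Spearman correlation over genes 0.870 to 0.916) than the f/f libraries did (0.978 to 0.989). Summed macrophage and myeloid markers reached 4380 FPKM in d/d replicate 2, against 325 to 964 FPKM in the other d/d and 247 to 367 FPKM in the f/f libraries. Lyz2 alone made up most of the sum in d/d replicates 2 and 1 (3738 and 751 FPKM). Every marker of the sum was highest in d/d replicate 2, Itgam only narrowly (43.5 FPKM, against 40.2 FPKM in d/d replicate 3). Summed epithelial markers spanned 741 to 2481 FPKM in d/d and 1101 to 1308 FPKM in f/f libraries, stromal markers 1764 to 4195 and 2795 to 3124 FPKM, smooth muscle markers 1121 to 4758 and 2493 to 5967 FPKM, and endothelial markers 107 to 240 and 211 to 335 FPKM. Single markers also moved with genotype: the epithelial genes Epcam and Krt7 were called higher (3.14-fold and 7.68-fold by their means, limma adjusted p = 0.0452 and 0.0363). The other 6 epithelial markers were not called. Among them Cldn3 had all d/d values below all f/f values (log2 fold change -1.15, limma adjusted p = 0.266), and Krt18 stood at -0.05. The endothelial gene Cdh5 and the smooth muscle gene Smtn were called lower (to 0.393 and 0.512 of their f/f means; adjusted p = 0.0343 and 0.0499). Of 6 endothelial markers, 4 had all d/d values below all f/f values, as did 17.8% of all genes tested. The endothelial marker Vwf overlapped, with a log2 fold change of 0.26. All 7 smooth muscle markers had a negative log2 fold change, as did 6241 of 12979 genes tested. Smtn alone of the 7 was called, where 3.81% of all genes tested were called lower. Of 8 stromal markers 0 were called, and 2 had all d/d values below all f/f values, as did 17.8% of all genes tested. The 2 were Vim and Pdgfra (log2 fold change -1.27 and -1.445, limma adjusted p = 0.0647 and 0.114). The stromal genes Dcn and Lum stood at 0.62 and 0.98, with overlapping values. The part of these shifts in the members' values was not tested. In whole tissue, fewer cells of a type and less RNA per cell cannot be told apart.

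The protein p53 is a transcription factor held low by Mdm2 and Mdm4 and released by DNA damage, ribosome defects and other stress. Its targets halt the cell cycle, repair DNA, restrain growth and, through BCL2 family genes, open the outer mitochondrial membrane. Released cytochrome c then assembles Apaf1 and Casp9 into the apoptosome, which activates the executioner caspases, while death receptors reach the same caspases through Casp8. In the mouse uterus, apoptosis has been described in luminal epithelial cells at the site of embryo attachment. Its part in their removal was not tested here.

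Of the 35 members, 3 rose and 1 fell in d/d uteri (limma adjusted p under 0.05 over 12979 genes), or 11.4%, where 7.30% of all genes tested were called, 3.49% higher and 3.81% lower. The growth factor gene Gdf15 rose 31.6-fold and the BH3-only genes Pmaip1 and Bmf rose 2.28-fold and 1.96-fold by their means, while the cyclin gene Ccng1 fell to 0.690 of its f/f mean. In 17 members (48.6%) the d/d and f/f values did not overlap, 11 with d/d higher and 6 with d/d lower, and this held for 35.9% of all genes tested, 18.1% with d/d higher and 17.8% with d/d lower. All 35 members passed the filter on low values, Gdf15 only through the d/d libraries, so Gdf15 could enter the counts above only with a difference. The median log2 fold change of the 35 was 0.16, beside 0.02 over all genes tested. That median was 0.02 for the p53 network (members from -1.14 to 2.87), 0.56 for the BCL2 family (-0.62 to 0.99) and 0.17 for the caspase machinery (-0.20 to 1.14), ranges that overlap. An unadjusted p under 0.05 was reached by 16 of the 35 members and by 26.7% of all genes tested. The calls depended on single libraries, most of all on those of f/f: 0 genes of any kind were called by limma without f/f replicate 1 (2292 genes and 10 members at an unadjusted p under 0.05). The log2 fold changes of Gdf15, Pmaip1, Bmf and Ccng1 were then 2.79, 1, 0.95 and -0.55, beside 2.87, 0.99, 0.88 and -0.53 with all libraries. Without f/f replicate 2, 30 genes and 0 members were called (10 members at an unadjusted p under 0.05), and without f/f replicate 3, 111 genes and Gdf15 alone of the members. Leaving out d/d replicate 1, 2 or 3 gave 4 called members each time, with only Gdf15 among them in every case.

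**Figure D1:**
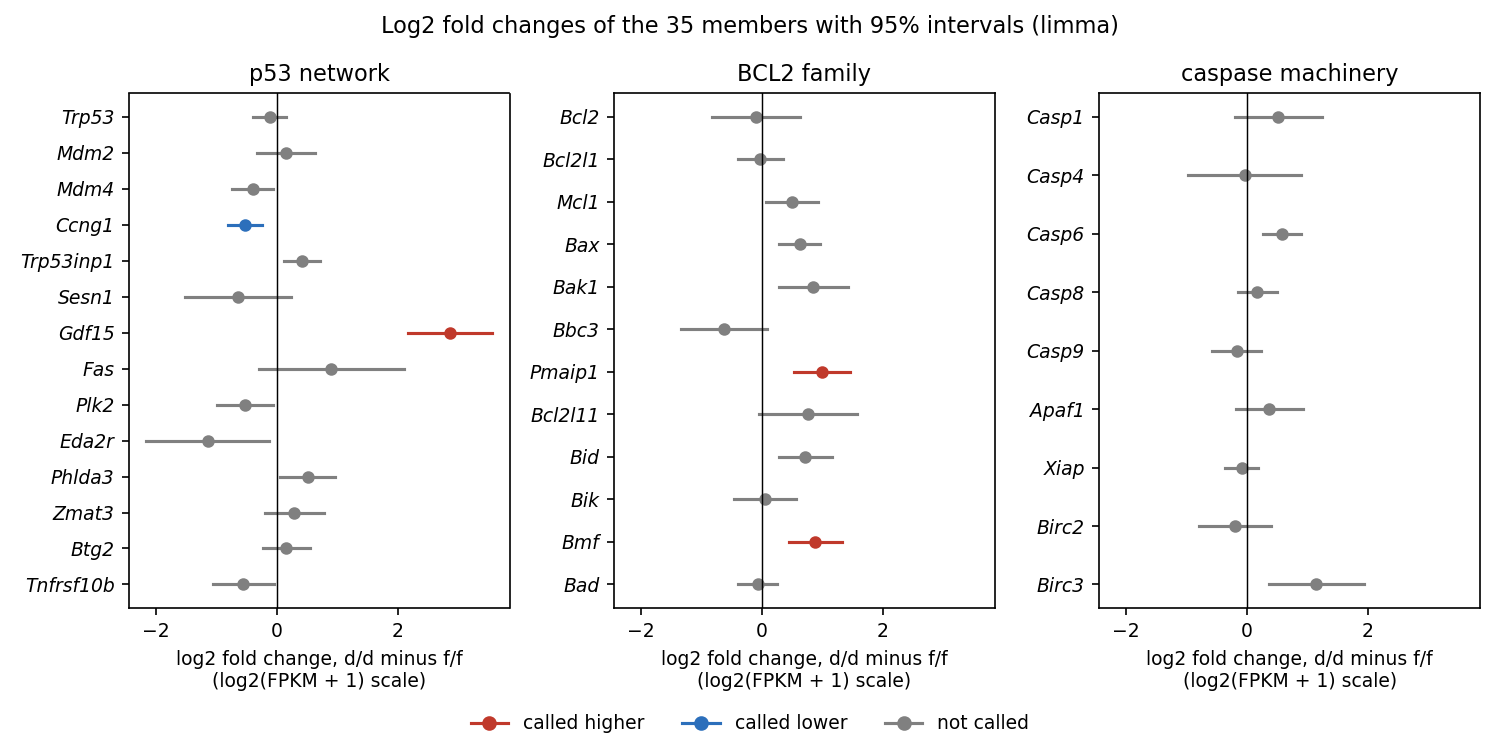
Log2 fold changes (d/d minus f/f, log2(FPKM + 1) scale) of the 35 members with 95% intervals from limma, in 3 panels; red marks the 3 members called higher, blue the 1 called lower and grey the 31 not called. Gdf15 stands at 2.87, far right of all others, and the BCL2 family panel lies mostly right of 0.

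Gdf15 encodes a secreted member of the TGF-beta superfamily that p53 and other stress pathways induce. It was at 6.69, 6.39 and 13.1 FPKM in d/d replicates 1 to 3, against 0.147, 0.390 and 0.293 FPKM in f/f replicates 1 to 3. It was thus below 1 FPKM in every f/f library and above 6 FPKM in every d/d library, highest in d/d replicate 3. Gdf15 met the filter on low values only through the d/d libraries, so it could enter the test only with a difference; with no filter its adjusted p was 0.0186. On the log2 scale it rose by 2.87 with an SE of 0.29 and a 95% interval of 2.18 to 3.56 (limma, adjusted p = 0.00853), and the two-sided exact test by permutation returned p = 0.1, the smallest that 3 against 3 libraries allow. With a pseudocount of 0.1 in place of 1 the log2 fold change was 4.53, because f/f values lay below 1 FPKM. The call was lost without f/f replicate 1 (adjusted p = 0.0636) or f/f replicate 2 (0.0631). Without d/d replicate 2, the library rich in leukocyte markers, the difference was 3.03 on the log2 scale (adjusted p = 0.0118). The gene lies on chromosome 8 (70629393 to 70632456, minus strand, GRCm38) and its exons overlap no other annotated gene. The 250 bases before its start at chr8:70632457-70632706 (minus strand, RefSeq table of GRCm38.p6) are shown because this gene moved most.

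Gdf15: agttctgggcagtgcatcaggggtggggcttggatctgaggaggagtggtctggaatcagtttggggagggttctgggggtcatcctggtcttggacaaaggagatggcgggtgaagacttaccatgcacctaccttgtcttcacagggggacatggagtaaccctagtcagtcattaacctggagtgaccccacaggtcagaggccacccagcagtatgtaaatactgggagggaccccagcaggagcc

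No base is in capitals because none of the motifs searched, described with the sequences below, was found in this stretch.

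The p53 gene and its negative regulators showed no called change. Trp53 was at 64.7, 73.9 and 68.4 FPKM in d/d, against 79.0, 70.9 and 75.0 FPKM in f/f libraries, with overlapping values (log2 fold change -0.12, 95% interval -0.39 to 0.15, limma adjusted p = 0.538). Mdm2, the ubiquitin ligase gene that is itself a p53 target, was at 30.2, 34.7 and 21.9 FPKM in d/d, against 23.9, 23.4 and 29.5 FPKM in f/f libraries. The d/d values of Mdm2 lay on both sides of the f/f values (log2 fold change 0.15, 95% interval -0.33 to 0.63). Mdm4, whose product binds p53 and blocks its activation domain, was at 20.2, 20.4 and 15.9 FPKM in d/d, against 26.2, 23.6 and 25.4 FPKM in f/f libraries. All d/d values of Mdm4 were below all f/f values, and the log2 fold change of -0.40 missed the threshold (adjusted p = 0.132).

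Among the p53 targets 1 member, Ccng1, fell in d/d uteri. Ccng1 encodes cyclin G, which recruits a phosphatase to Mdm2, and is among the most regular p53 targets. It was at 38.9, 42.4 and 35.1 FPKM in d/d, against 54.8, 55.8 and 58.2 FPKM in f/f libraries, so that the groups were well separated although the change was small. Its log2 fold change came to -0.53, with an SE of 0.12 and a 95% interval from -0.81 to -0.25 (limma, adjusted p = 0.0492; p = 0.1 by exact permutation). This call lay at the threshold and was lost without any 1 of the f/f libraries (adjusted p = 0.178 to 0.196), without d/d replicate 1 (0.0645) and without d/d replicate 3 (0.0533). The gene lies on chromosome 11 (40748552 to 40755311, minus strand).

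Eda2r, the receptor gene of the ectodysplasin A2 ligand, had the most negative log2 fold change of the members at -1.14 but did not pass (adjusted p = 0.149). It was at 3.50, 3.18 and 0.557 FPKM in d/d, against 5.97, 5.08 and 6.39 FPKM in f/f libraries, with d/d replicate 3 far below the other d/d libraries. The polo-like kinase gene Plk2 was at 13.9, 16.9 and 17.7 FPKM in d/d, against 24.6, 28.7 and 18.7 FPKM in f/f libraries. The TRAIL death receptor gene Tnfrsf10b was at 12.2, 7.39 and 7.77 FPKM in d/d, against 13.5, 12.3 and 14.9 FPKM in f/f libraries. Both had all d/d values below all f/f values without passing (adjusted p = 0.140 and 0.156). Without d/d replicate 1, Tnfrsf10b was called lower (log2 fold change -0.76, adjusted p = 0.0383). Sesn1, a sestrin gene that restrains growth signalling through mTORC1, overlapped between genotypes and was spread widely among the d/d libraries, at 22.5, 35.4 and 11.9 FPKM, against 33.9, 31.1 and 36.5 FPKM in f/f libraries.

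Other p53 targets stood higher in d/d libraries without passing. Trp53inp1, which promotes p53-driven cell death and autophagy, was at 22.1, 18.4 and 20.2 FPKM in d/d, against 15.1, 14.3 and 15.3 FPKM in f/f libraries (log2 fold change 0.42, limma adjusted p = 0.0928). Phlda3, whose product competes with the kinase Akt for membrane lipids, was at 32.1, 46.5 and 29.7 FPKM in d/d, against 25.1, 25.6 and 23.0 FPKM in f/f libraries (adjusted p = 0.147). The genotypes did not overlap for either gene. Fas, the death receptor gene, overlapped: it was at 4.57, 13.8 and 2.85 FPKM in d/d, against 2.71, 3.39 and 1.98 FPKM in f/f libraries, and the high value was in the leukocyte-rich d/d replicate 2. The growth-arrest gene Btg2 and the zinc finger gene Zmat3 overlapped as well (log2 fold changes 0.16 and 0.29). The p53 network thus had 7 members with a positive and 7 with a negative log2 fold change, with 1 called in each direction. Of its 14 members, 8 had an unadjusted p under 0.05 (26.7% of all genes tested did), 3 of them with d/d higher.

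The stretches of 30 bases around each match to the p53 half-site consensus are shown because the genes that carry one did not move one way. Windows from 250 bases before to 50 bases after a start were in the RefSeq promoter table for 30 of the 35 members (45 windows). Trp53inp1, Zmat3, Tnfrsf10b, Bik and Pmaip1 had no entry. The half-site, the same on both strands, was found in 7 windows of 7 members (15.6% of the member windows), against 8.36% of all 32851 windows of this length. The sequences read in the direction of the gene and capitals mark the match.

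Ccng1, chr11:40755452-40755481, minus strand: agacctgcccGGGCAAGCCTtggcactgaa
Mdm2, chr10:117710925-117710954, minus strand: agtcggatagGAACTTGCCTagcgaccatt
Sesn1, chr10:41887256-41887285, plus strand: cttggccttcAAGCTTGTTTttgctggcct
Trp53, chr11:69580274-69580303, plus strand: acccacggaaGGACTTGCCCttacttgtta
Bax, chr7:45467080-45467109, minus strand: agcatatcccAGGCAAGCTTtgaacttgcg
Bmf, chr2:118544781-118544810, minus strand: cccaagtgaaGGGCTTGCCTcttgccgaat
Birc2, chr9:7836777-7836806, minus strand: cagtcaacccAGGCTAGTCTcgaatttgcg

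The matches begin 185 bases before the start of the window's transcript in Ccng1, 186 in Mdm2, 173 in Sesn1, 75 in Trp53, 201 in Bax and 213 in Bmf, and 10 bases after it in Birc2. For Sesn1 and Bmf that start is the one of the transcripts Sesn1-201 and Bmf-205, inside the gene. The other windows of Sesn1, Bmf and Birc2 held no match. Of these genes Bmf was called higher, Ccng1 was called lower and the other 5 were not called. A match is a string of letters, not a measured binding site, and a p53 site is usually a pair of half-sites, often outside such a window. The C/EBP-ATF motif TGATGNAAN, searched on both strands, was found in 0 member windows and in 3.95% of all windows. The NF-kB consensus was found on either strand in 6 windows of the 5 members Bbc3, Bcl2l1, Bmf, Casp4 and Trp53 (13.3% of the member windows), against 4.51% of all windows, and no NF-kB match overlapped a half-site match.

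Of 12 BCL2 family members, 2 rose and 0 fell by limma (6 at an unadjusted p under 0.05, all with d/d higher), and the genotypes did not overlap in those 6. Of all genes tested, 7.30% were called, 26.7% had an unadjusted p under 0.05 and 35.9% did not overlap. The family's median difference from the f/f mean on the log2 scale was 0.39, 0.65 and 0.38 in d/d replicates 1, 2 and 3, so all 3 libraries lay above the f/f libraries (0.08, 0.01 and -0.07). Over all genes tested the same medians lay between -0.005 and 0.007. Taking differences from the f/f mean places the f/f libraries near 0 by construction. A median over 12979 genes also gives no spread for medians of 12 genes, which were chosen with earlier results known. These medians therefore describe the family and do not test a shift of it.

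The BH3-only proteins sense stress and bind the protective family members. Pmaip1, which encodes Noxa, a p53 target that binds Mcl1, was at 10.9, 9.10 and 6.67 FPKM in d/d, against 3.93, 3.77 and 3.96 FPKM in f/f libraries. The f/f values were nearly equal and every d/d value was well above them (log2 fold change 0.99, SE 0.19, limma adjusted p = 0.0365; p = 0.1 by exact permutation). Bmf, whose product is held on the cytoskeleton until stress frees it, was at 19.4, 18.7 and 13.4 FPKM in d/d, against 9.74, 8.65 and 7.90 FPKM in f/f libraries (log2 fold change 0.88, SE 0.18, adjusted p = 0.0403). Here too all d/d values exceeded all f/f values. The call of Pmaip1 was lost without any 1 f/f library (adjusted p = 0.129 to 0.158) and without d/d replicate 2 (0.0511). That of Bmf was lost without any 1 f/f library (0.150 to 0.167) and without d/d replicate 1 (0.0659) or 2 (0.0586). Without a filter on low values neither passed (adjusted p = 0.0610 and 0.0594). Pmaip1 lies on chromosome 18 (66458533 to 66465565, plus strand) and Bmf on chromosome 2 (118528757 to 118549687, minus strand).

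Bid, which links Casp8 to the mitochondrion, was at 13.2, 13.6 and 9.88 FPKM in d/d, against 7.69, 7.47 and 5.88 FPKM in f/f libraries. The groups did not overlap, and the log2 fold change of 0.72 missed the threshold (adjusted p = 0.0663), except without d/d replicate 3 (0.85, adjusted p = 0.0412). Bid shares 628 exon bases with Bcl2l13 on the other strand. Bcl2l11, which encodes Bim, was at 15.5, 18.8 and 8.16 FPKM in d/d, against 5.96, 6.84 and 10.4 FPKM in f/f libraries, so d/d replicate 3 lay within the f/f range. Bbc3, which encodes Puma and is the best known pro-apoptotic p53 target, had the opposite sign: it was at 7.76, 11.0 and 4.61 FPKM in d/d, against 14.2, 10.5 and 11.3 FPKM in f/f libraries. The values of Bbc3 overlapped (log2 fold change -0.62, 95% interval -1.33 to 0.09, adjusted p = 0.237). Bik and Bad, the remaining BH3-only members, overlapped, with log2 fold changes of 0.05 and -0.07.

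Bax and Bak1 encode the effectors that perforate the mitochondrial membrane. Bax was at 97.9, 116 and 121 FPKM in d/d, against 72.1, 80.0 and 64.1 FPKM in f/f libraries. Bak1 was at 68.5, 66.3 and 105 FPKM in d/d, against 51.7, 44.8 and 34.3 FPKM in f/f libraries. Both were separated between the genotypes, and neither passed over all genes, since Bax differed by 0.62 ± 0.14 and Bak1 by 0.85 ± 0.24 on the log2 scale (estimate ± SE from limma; adjusted p = 0.0516 and 0.0824). Bax was called higher without d/d replicate 1 (0.72, adjusted p = 0.0381). Bax shares 192 exon bases with the predicted gene Gm45808 on its own strand, and Bak1 shares 437 with Ggnbp1 on the other strand, so part of their fragments cannot be assigned with certainty.

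**Figure D2:**
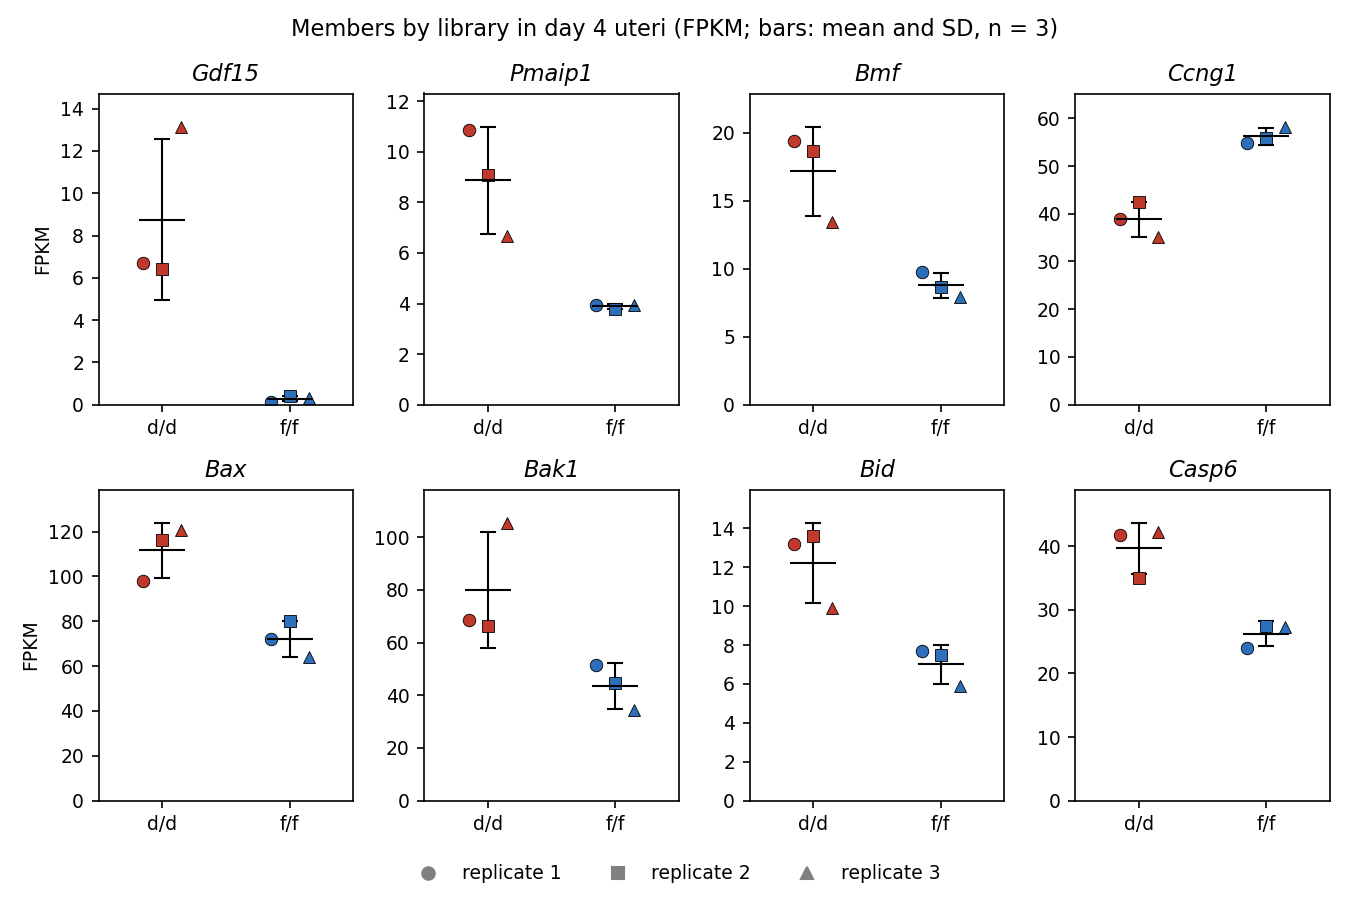
FPKM of 8 members in each library, d/d in red and f/f in blue; the shapes give the replicate number, and the horizontal line and whiskers the mean and SD (n = 3 each). In each panel the genotypes are separate, with d/d above f/f in all but Ccng1, and the f/f values of Gdf15 sit near 0.

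Of the 3 protective genes, Mcl1 was the most abundant in both genotypes, followed by Bcl2l1, which encodes Bcl-xL, and by Bcl2. Mcl1 was at 102, 147 and 100.04 FPKM in d/d, against 84.9, 80.3 and 76.3 FPKM in f/f libraries, with no overlap and its highest value in d/d replicate 2 (log2 fold change 0.50, limma adjusted p = 0.135). Bcl2l1 was at 59.97, 43.4 and 55.2 FPKM in d/d, against 56.6, 49.7 and 54.0 FPKM in f/f libraries (log2 fold change -0.03, 95% interval -0.39 to 0.34). Bcl2 was at 7.84, 8.24 and 3.43 FPKM in d/d, against 6.83, 6.90 and 6.29 FPKM in f/f libraries, so that d/d replicate 3 fell below and the other d/d libraries above every f/f value (log2 fold change -0.11, 95% interval -0.83 to 0.62). Bcl2 shares 558 exon bases with the antisense gene D630008O14Rik.

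Set side by side as FPKM, which is per length, the ratio of Bax to Bcl2 was 12.5, 14.1 and 35.2 in d/d, against 10.6, 11.6 and 10.2 in f/f libraries. The ratio was above every f/f value in each d/d library, and its high value in d/d replicate 3 goes with the low Bcl2 there. The ratio of Bax to Bcl2l1 was 1.63, 2.68 and 2.19 in d/d, against 1.27, 1.61 and 1.19 in f/f libraries, a separation that d/d replicate 1 kept only narrowly. The ratio of Bcl2l11 to Mcl1 was 0.153, 0.128 and 0.0816 in d/d, against 0.0702, 0.0851 and 0.136 in f/f libraries and overlapped. These ratios are descriptions of RNA, with no test.

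**Figure D3:**
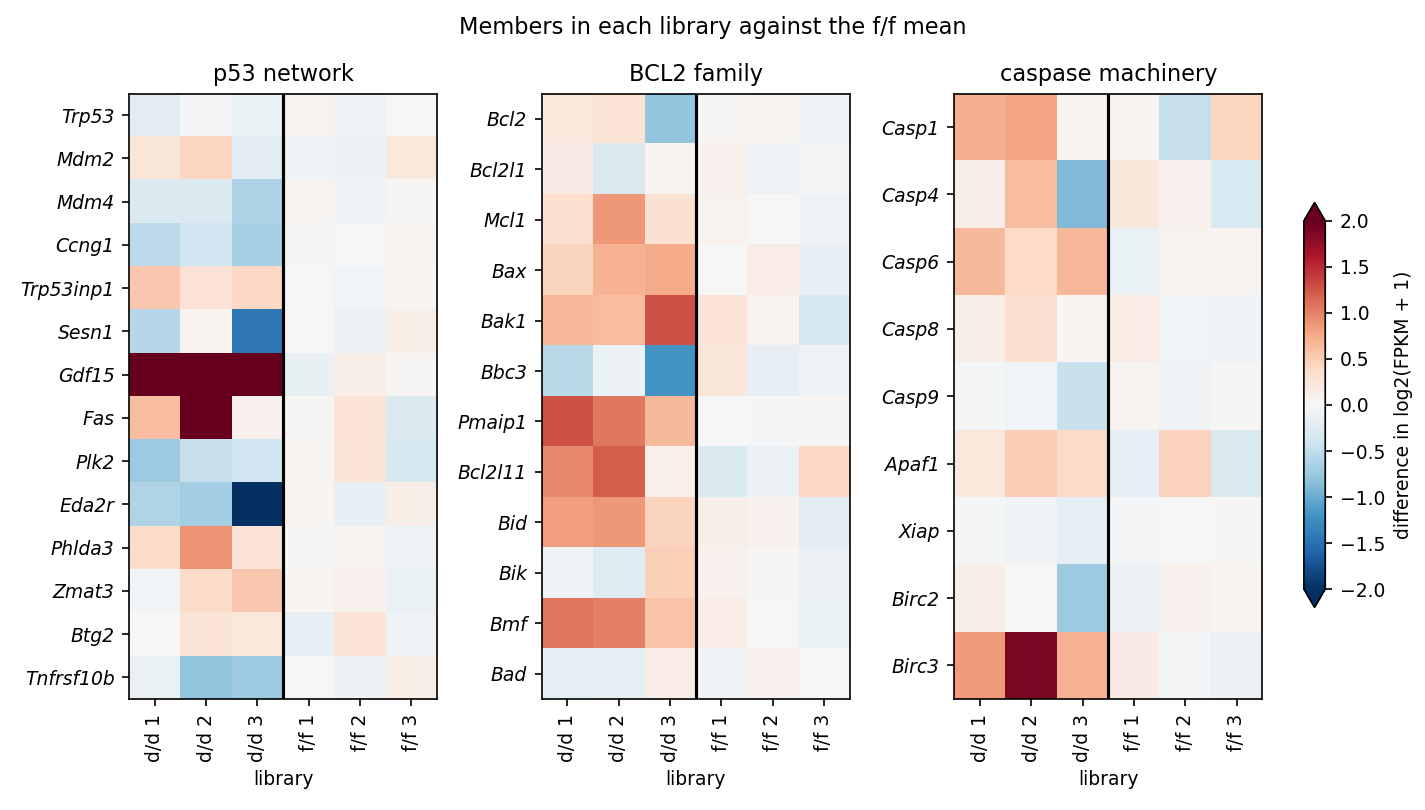
Difference of each member's log2(FPKM + 1) from its f/f mean, members in rows by group and libraries in columns with d/d left of f/f; red is above and blue below the f/f mean, and colours saturate at 2 units. Gdf15 is red in all d/d columns, Fas and Birc3 are deep red in d/d replicate 2, and Eda2r, Sesn1 and Bbc3 are blue in d/d replicate 3.

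No caspase or apoptosome gene was called in d/d uteri. Of the 9 members of the caspase machinery, 0 passed limma's threshold, 2 had an unadjusted p under 0.05, and 3 (33.3%) did not overlap between the genotypes, near or below the shares of all genes tested (7.30%, 26.7% and 35.9%). Casp6, an executioner caspase gene, came nearest: it was at 41.7, 35.01 and 42.2 FPKM in d/d, against 23.9, 27.4 and 27.3 FPKM in f/f libraries. Every d/d value exceeded every f/f value (log2 fold change 0.57, SE 0.13, adjusted p = 0.0513), and without d/d replicate 2 it was called (0.66, adjusted p = 0.0340). The initiator of the mitochondrial pathway, Casp9, was at 8.31, 8.10 and 5.89 FPKM in d/d, against 8.74, 7.94 and 8.62 FPKM in f/f libraries. Its scaffold Apaf1 was at 6.88, 8.57 and 7.90 FPKM in d/d, against 5.03, 8.29 and 4.58 FPKM in f/f libraries. Both overlapped (95% intervals of the log2 fold change -0.57 to 0.23 and -0.19 to 0.92). Casp8, the initiator of the death receptor pathway, was at 42.0, 48.2 and 39.3 FPKM in d/d, against 42.1, 36.6 and 35.8 FPKM in f/f libraries (log2 fold change 0.17, 95% interval -0.15 to 0.49).

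Of the inhibitor-of-apoptosis genes, Birc3, whose product ubiquitinates signalling proteins at TNF receptors and is a classic NF-kB target, was at 21.7, 45.6 and 19.3 FPKM in d/d, against 13.1, 11.2 and 10.6 FPKM in f/f libraries. All d/d values lay above the f/f values, the highest in d/d replicate 2 (log2 fold change 1.14, SE 0.32, limma adjusted p = 0.0859). Without that library the log2 fold change was 0.77 and passed (adjusted p = 0.0350). Its relative Birc2 was at 20.6, 18.7 and 10.8 FPKM in d/d, against 17.1, 19.9 and 19.2 FPKM in f/f libraries. Xiap, the direct caspase inhibitor gene, was at 19.7, 19.2 and 17.7 FPKM in d/d, against 19.8, 20.1 and 20.6 FPKM in f/f libraries: the groups did not overlap, yet the log2 fold change was -0.09 with a 95% interval of -0.36 to 0.17.

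The inflammatory caspase genes were not called. Casp1, which activates interleukin-1 beta, was at 41.2, 43.9 and 25.7 FPKM in d/d, against 25.7, 17.7 and 33.6 FPKM in f/f libraries. Casp4, the mouse sensor of intracellular lipopolysaccharide, was at 39.4, 55.1 and 18.9 FPKM in d/d, against 41.7, 37.7 and 28.7 FPKM in f/f libraries. Both overlapped, and both peaked in d/d replicate 2 (limma adjusted p = 0.314 and 0.958). Across the 35 members, d/d replicate 2 held the highest value of the 6 libraries for 12 (34.3%) and for 5 of the 9 caspase machinery members, where it held the highest for 21.1% of all genes tested. In that library neutrophil markers summed to 1130 FPKM, against 28.5 and 29.1 FPKM in the other d/d and 6.58 to 13.3 FPKM in the f/f libraries, with S100a9 listed at 0 in d/d replicate 3 and Mpo at 0 in d/d replicate 1. S100a8 and S100a9 made up most of that sum (406 and 560 FPKM), while Ly6g and Mpo were highest in d/d replicate 3 (24.97 and 1.63 FPKM, against 5.8 and 0.284 FPKM in d/d replicate 2). Of 6 macrophage and myeloid markers, all had a positive log2 fold change, as did 6738 of 12979 genes tested. Among these markers 1, Cd68, was called higher, where 3.49% of all genes tested were called higher. The part of leukocytes in the values of Fas, Mcl1, Birc3, Casp1 and Casp4 was not tested.

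**Figure D4:**
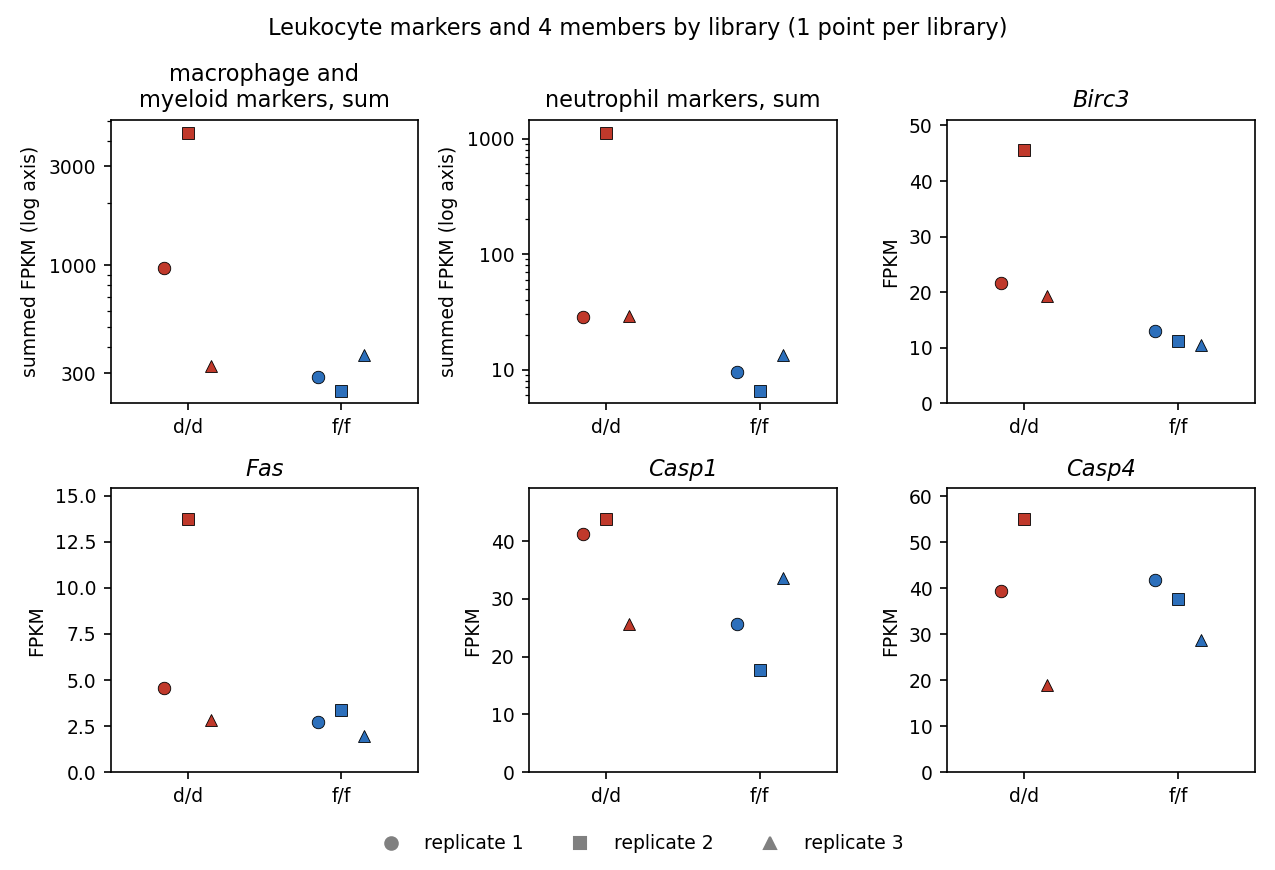
Summed FPKM of 6 macrophage and myeloid markers and of 7 neutrophil markers (log axes) beside the FPKM of Birc3, Fas, Casp1 and Casp4 (linear axes from 0), 1 point per library with d/d left of f/f. The square of d/d replicate 2 is the highest point in every panel.

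Of 27 other p53 targets measured outside the members, 3 (11.1%) rose and 0 fell by limma, where 7.30% of all genes were called. Cdkn1a, which encodes the cell cycle inhibitor p21, was at 20.4, 53.8 and 32.5 FPKM in d/d, against 10.5, 10.5 and 9.26 FPKM in f/f libraries (log2 fold change 1.62, adjusted p = 0.0408). The apoptosis-enhancing nuclease gene Aen averaged 19.0 ± 1.96 FPKM in d/d and 10.7 ± 0.345 FPKM in f/f libraries (SD, n = 3 each; log2 fold change 0.76, adjusted p = 0.0266). The epoxide hydrolase gene Ephx1 averaged 41.9 ± 2.502 FPKM in d/d and 20.1 ± 0.812 FPKM in f/f libraries (log2 fold change 1.02, adjusted p = 0.00992). The DNA repair gene Ddb2 and the sestrin gene Sesn2, also p53 targets and named after their values were seen, stood at -0.90 and -0.91 on the log2 scale and missed the threshold (adjusted p = 0.106 and 0.0783). The median over the 27 was 0.10.

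Of 11 other BCL2 family genes tested, 1 rose and 1 fell (18.2%, where 7.30% of all genes tested were called). The genotypes did not overlap in 2 of the 11 (18.2%), against 35.9% of all genes tested. The median log2 fold change of the 11 was 0.07. Bcl2l15, a BCL2-like gene, was at 60.8, 71.6 and 71.3 FPKM in d/d, against 8.08, 7.25 and 18.1 FPKM in f/f libraries (log2 fold change 2.61, limma adjusted p = 0.0153). Bok, an effector related to Bax and Bak1, was at 20.8, 29.7 and 15.4 FPKM in d/d, against 48.5, 46.3 and 42.6 FPKM in f/f libraries (log2 fold change -1.07, adjusted p = 0.0484). Bok thus moved opposite to the direction seen in Bax and Bak1.

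Of 11 other death receptor genes tested, 3 rose and 0 fell (27.3%, where 7.30% of all genes tested were called). Tnfsf10, the gene of the TRAIL ligand, was at 41.0, 27.2 and 28.5 FPKM in d/d, against 16.8, 16.7 and 11.0 FPKM in f/f libraries (log2 fold change 1.07, limma adjusted p = 0.0479), while its receptor gene Tnfrsf10b stood lower. The TNF receptor gene Tnfrsf1b was at 19.1, 53.1 and 17.6 FPKM in d/d, against 6.35, 7.11 and 5.21 FPKM in f/f libraries (log2 fold change 1.92, adjusted p = 0.0480), with its peak in the leukocyte-rich library. The kinase gene Ripk1, which acts below these receptors, averaged 18.9 ± 2.35 FPKM in d/d and 11.2 ± 0.547 FPKM in f/f libraries (log2 fold change 0.70, adjusted p = 0.0383). Of these 8 called genes outside the members, 0 were still called without f/f replicate 1 or 2, Bcl2l15 alone without f/f replicate 3, 5 without d/d replicate 1, 7 without d/d replicate 2 and 4 without d/d replicate 3. With no filter on low values 3 were still called (Aen, Ephx1 and Bcl2l15).

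**Figure D5:**
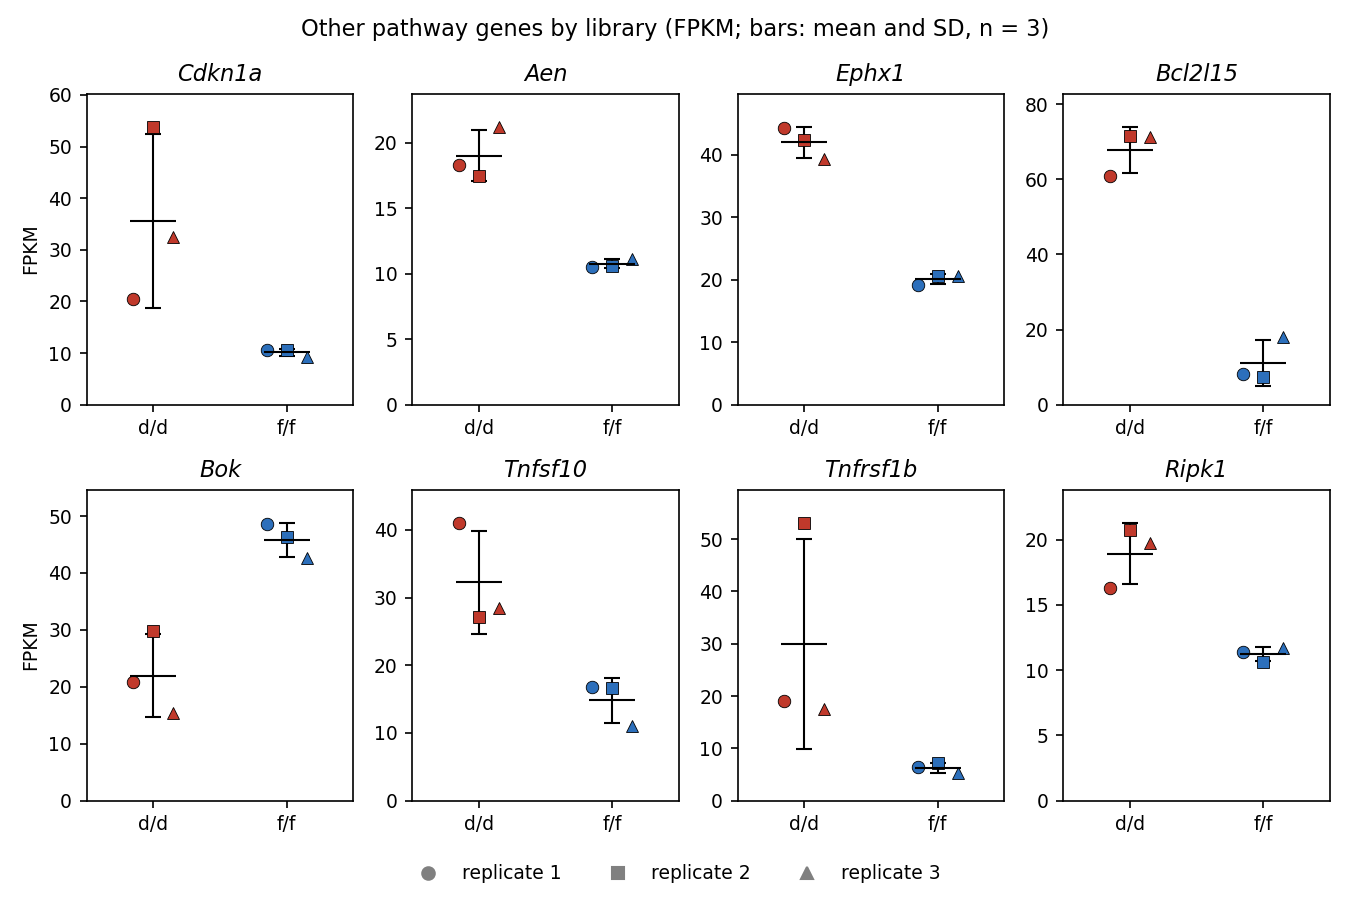
FPKM of the 8 called pathway genes outside the members in each library, d/d in red and f/f in blue, with the mean and SD (n = 3 each). All panels are separate between the genotypes, Bok alone has d/d below f/f, and Cdkn1a and Tnfrsf1b peak in d/d replicate 2.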

How the data were processed

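Total RNA of whole uteri was extracted with TRIzol and made into Illumina TruSeq libraries, per the labels' protocols. The authors deposited 1 table per library with 21936 gene rows, whose values were taken as FPKM. That unit was inferred from decimals whose totals differ and from Cufflinks, since the headers name none. HISAT2 2.2.1 and Cufflinks 2.2.1 are listed with the builds mm9 and mm10, per the submitters' processing notes; the sources used here name neither the annotation nor whether strand was used. Absolute depth is unknown and relative depth, from the most frequent ratio of low values, was 0.934 to 1.01 times that of f/f replicate 1, so no counting interval is given.

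Where a symbol had several rows, the one with the highest mean was kept (36 rows dropped). Genes at 1 FPKM or more in at least 3 of 6 libraries entered limma 3.58.1 (R 4.3.3) on the log2(FPKM + 1) scale (genotype model, intensity trend, two-sided, Benjamini-Hochberg over 12979 genes, threshold 0.05), after a check on simulated data. Log2 fold changes are d/d minus f/f on that scale and understate changes of low genes. Folds are ratios of mean FPKM. Positions come from GENCODE M21 (GRCm38) by gene ID; the exons of 6 members overlap another gene. The members and lists were chosen with earlier results of these data known. Members named in full were those with an unadjusted p under 0.05, the core genes of each group and some further members. Fas, Sesn1, Bcl2l11, Casp1, Casp4, Birc2 and Xiap were given in full without reaching that p. Of other lists, mostly the called genes or those with the lowest p were named. Il1b was named while Aim2, with a lower p, was not, and Sesn2 and Ddb2 were named while Cd82 was not. The genes shown were thus partly picked with their values known, not by a fixed rule. A list of other caspase machinery genes is not reported here.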

Additional observations from a re-analysis of the deposited data

How the results depend on the processing

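Leaving out 1 library at a time gave 0 to 1367 called genes (0 to 729 higher, 0 to 748 lower) and 0 to 4 called members (0 to 4 higher, 0 to 1 lower). With all libraries there were 947 genes and 4 members. With the replicate block, 100 genes (51 higher, 49 lower) and 1 member (1 higher, 0 lower) were called, Gdf15 (adjusted p = 0.0418); of the 8 called pathway genes outside the members, Bcl2l15 alone was still called. The replicate numbers share no stated animal, litter or day. The deviations of same-numbered libraries correlated at -0.02, 0.02 and -0.02, and no library correlated best with its own number. With no filter on low values, 291 genes were higher, and 2 members were called, 1 of them higher. The number of members called lower was 0 with a pseudocount of 0.1, with at least 5 FPKM in 3 libraries, with no intensity trend and with a weight per genotype, where Ccng1 missed the threshold (adjusted p = 0.0506 to 0.0624). With quantile normalization Bax was called (0.54, adjusted p = 0.0366) and Bik turned to -0.019. Median-of-ratios scaling changed no call of a member. Signs also turned among members near 0 when 1 library was left out: Bcl2l1 ranged from -0.12 to 0.11, Casp4 from -0.37 to 0.38, Bik from -0.17 to 0.20, Bcl2 from -0.29 to 0.24 and Birc2 from -0.37 to 0.066. The causes of these shifts were not tested.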

Other observations

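Genes that act upstream of p53 were not called. Of 13 regulators tested by limma, 0 passed and 3 had an unadjusted p under 0.05, as did 26.7% of all genes tested. The damage kinase gene Atr was at 7.69, 6.04 and 6.90 FPKM in d/d, against 4.78, 4.78 and 4.75 FPKM in f/f libraries, with every d/d value higher (log2 fold change 0.44, adjusted p = 0.114). Hipk2, a kinase gene whose product phosphorylates p53, averaged 2.02 ± 0.27 FPKM in d/d and 0.992 ± 0.137 FPKM in f/f libraries (SD, n = 3 each; adjusted p = 0.0820), and Trp53bp1, a DNA repair gene, stood at -0.48 on the log2 scale (adjusted p = 0.182). The p53 relatives Trp63 and Trp73 and the Mdm2 inhibitor gene Cdkn2a were below the filter.

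Among 5 inflammasome genes tested by limma, 0 passed and 1 had an unadjusted p under 0.05, as did 26.7% of all genes tested. Pycard, the adaptor gene of Casp1, was at 88.8, 70.7 and 186 FPKM in d/d, against 38.6, 29.7 and 35.8 FPKM in f/f libraries, with d/d replicate 3 highest (log2 fold change 1.58, limma adjusted p = 0.0513). Il1b, whose product Casp1 cleaves, was at 2.21, 120 and 0.268 FPKM in d/d, against 0.251, 1.59 and 0.399 FPKM in f/f libraries, so that its high level was that of d/d replicate 2. Bcl2a1b, a protective BCL2 family gene of leukocytes named after its values were seen, was at 24.6, 122 and 3.51 FPKM in d/d, against 8.40, 6.37 and 7.97 FPKM in f/f libraries. Bcl2a1a, Bcl2a1b and Bcl2a1d are near-identical copies whose single values are uncertain.

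Markers of natural killer cells and lymphocytes summed to 13.1, 80.3 and 3.19 FPKM in d/d, against 20.4, 11.95 and 21.6 FPKM in f/f libraries. Of the 5 markers tested, 0 were called and 3 had all d/d values below all f/f values, as did 17.8% of all genes tested. The 3 were Ncr1, Klrb1c and Eomes. Eomes was at 0.560, 0.621 and 0.242 FPKM in d/d, against 3.42, 2.77 and 1.16 FPKM in f/f libraries. It met the filter on low values only through the f/f libraries, so its entry already required this separation, which therefore tests nothing.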
